A study of Mus musculus with 8 samples.

Results

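Krt6a, Krt6b, Krt16 and Krt17, the stress keratins of the epidermis, were taken by name from the deposited count table, where they are 4 of 23171 genes. They were compared between 4 epidermal libraries of mice whose Hnrnp-u gene was knocked out in the epidermis (cKO) and 4 epidermal libraries of control mice labelled WT. Mice of both genotypes had received imiquimod, a Toll-like receptor agonist that causes psoriasis-like skin inflammation, and no untreated epidermis was analysed here. Hnrnpu encodes a nuclear RNA-binding protein. Neither the driver of the knockout nor the strain, age or sex of the mice is given in the labels. The labels call the cells keratinocytes and place all libraries in the same batch. The design text counts 4 mice in each group.

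Keratins form intermediate filaments as obligate pairs of a type II and a type I protein. Krt6a and Krt6b are type II keratins and Krt16 and Krt17 are type I keratins. In undisturbed skin they are made mainly in the hair follicle, in the outer root sheath and the companion layer next to it. After wounding and in psoriasis they appear in the interfollicular epidermis, which otherwise makes the basal pair Krt5 and Krt14 and the suprabasal pair Krt1 and Krt10. In mice, loss of Krt16 causes footpad lesions and loss of Krt17 causes hair loss that depends on the strain.

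The Krt6 copies are close to each other in sequence and Krt16 and Krt17 are not, which sets how well their reads can be told apart. In the GENCODE M21 transcripts the coding sequences of Krt6a and Krt6b (1659 and 1662 bases) were identical at 97.8% of aligned bases, with a longest identical run of 280 bases. Those of Krt16 and Krt17 (1407 and 1299 bases) were identical at 80.7%, with a longest run of 55 bases. The ungapped coding stretch of 60 bases in which each pair differed most follows, with the bases that differ in capitals. It held 10 differing bases for the Krt6 pair and 20 for the type I pair. Positions are counted from the start codon.
Krt6a, bases 817 to 876: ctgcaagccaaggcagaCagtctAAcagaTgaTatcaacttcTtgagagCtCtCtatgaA
Krt6b, bases 817 to 876: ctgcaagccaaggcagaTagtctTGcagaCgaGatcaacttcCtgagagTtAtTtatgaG
Krt16, bases 573 to 632: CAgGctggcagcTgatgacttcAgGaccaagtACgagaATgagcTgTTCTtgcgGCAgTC
Krt17, bases 486 to 545: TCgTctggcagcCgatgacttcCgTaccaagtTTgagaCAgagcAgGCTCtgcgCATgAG

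Of all 100-base windows of the Krt6a transcript, 34.0% also occurred in a transcript of Krt6b, Krt5 or the gene models Gm5414 and Gm5478. For Krt6b the share was 30.6%, for Krt16 it was 24.3%, shared with Krt14 and the gene model Gm11597, and for Krt17 it was 0 of 1452 windows. With 50-base windows the shares were 49.5% for Krt6a, 50.1% for Krt6b, 37.6% for Krt16 and 4.0% for Krt17. How the authors assigned reads that fit several genes is not given. The split between Krt6a and Krt6b and part of the Krt16 level are therefore uncertain, while Krt17 shares no 100-base window and few of 50 bases. The summed count of Krt6a and Krt6b, tested as 1 gene, had a log2 fold change of -0.96 ± 0.62 (SE, edgeR adjusted p = 0.446).

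Libraries held 37158621 to 38865722 counts, with 20415 to 349012 counts for Krt6a, 11643 to 284231 for Krt6b, 32531 to 293873 for Krt16 and 47482 to 123636 for Krt17. The keratinocyte genes Krt5, Krt14, Krt1, Krt10, Trp63 and Dsp summed to between 61180 and 86630 CPM (CPM is the count scaled to library size with TMM factors) in cKO libraries and between 69568 and 90767 CPM in WT libraries. Hnrnpu stood at 190, 373, 355 and 312 CPM in cKO replicates 1 to 4 and at 455, 424, 431 and 439 CPM in WT replicates 1 to 4, so the targeted gene was lower in all cKO libraries but still counted in each (log2 fold change -0.51 ± 0.19 SE, adjusted p = 0.191 by edgeR). Over all 14004 genes tested, the edgeR quasi-likelihood test called 185 at an adjusted p below 0.05, which is 1.32% (0.671% higher and 0.65% lower in cKO). In these bulk libraries fewer cells of a type and less RNA per cell cannot be told apart.

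Krt6a, Krt6b and Krt16 had lower mean levels in cKO epidermis and Krt17 a higher one, and none of the 4 passed the genome-wide test. The unadjusted edgeR p values were 0.254, 0.0806, 0.0527 and 0.188 for Krt6a, Krt6b, Krt16 and Krt17, where 18.6% of all genes had an unadjusted p below 0.05. DESeq2 and limma-voom called none of the 4 either. The genotypes did not overlap for Krt6b and Krt16, 2 of the 4, both lower in cKO. Of all genes tested, 11.1% had no overlap and 5.82% had none with cKO lower.

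Krt6a had 8107, 3897, 492 and 5777 CPM in cKO replicates 1 to 4 and 6405, 9395, 5727 and 9341 CPM in WT replicates 1 to 4. Replicates 1 and 4 of the cKO group lay inside the WT range, replicate 4 just above WT replicate 3. Replicate 3 of the cKO group lay far below every other library. The means were 4568 ± 3217 CPM in cKO epidermis and 7717 ± 1927 CPM in WT epidermis (SD, n = 4 each), a log2 fold change of -0.76 ± 0.62 (SE, edgeR adjusted p = 0.556, exact permutation p = 0.143). The 95% confidence interval spanned 0.224 to 1.56 times the WT level.

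Krt6b, the closely linked copy, had 4959, 3350, 281 and 2757 CPM in cKO replicates 1 to 4, against 5946, 7841, 5208 and 7607 CPM in WT replicates 1 to 4. All cKO libraries lay below all WT libraries, but cKO replicate 1 was close to WT replicate 3. The means were 2837 ± 1941 CPM in cKO epidermis and 6651 ± 1279 CPM in WT epidermis (SD, n = 4 each). The log2 fold change was -1.23 ± 0.63 (SE, edgeR adjusted p = 0.331), with a 95% confidence interval from 0.160 to 1.13 times the WT level. A two-sided exact permutation test gave p = 0.0286, the lowest value 4 against 4 libraries can reach.

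Krt16, the type I partner of Krt6, had 5488, 3560, 785 and 4212 CPM in cKO replicates 1 to 4, against 5669, 8124, 7331 and 7360 CPM in WT replicates 1 to 4. The genotypes did not overlap, although cKO replicate 1 and WT replicate 1 were nearly level. The means were 3511 ± 1986 CPM in cKO epidermis and 7121 ± 1035 CPM in WT epidermis (SD, n = 4 each). The log2 fold change was -1.02 ± 0.46 (SE, edgeR adjusted p = 0.276, 0.241 to 1.01 times the WT level), and the exact permutation p was 0.0286, again the smallest possible.

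Krt17, the type I keratin that shares least sequence with the others, had 2312, 1495, 1389 and 2941 CPM in cKO replicates 1 to 4, against 1330, 1647, 1319 and 2039 CPM in WT replicates 1 to 4. The genotypes overlapped, with cKO replicates 1 and 4 above all WT libraries and cKO replicates 2 and 3 within the WT range. The means were 2034 ± 732 CPM in cKO epidermis and 1584 ± 339 CPM in WT epidermis (SD, n = 4 each), a log2 fold change of 0.36 ± 0.25 (SE, edgeR adjusted p = 0.487, exact permutation p = 0.314, 0.864 to 1.91 times the WT level).

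**Figure D1:**
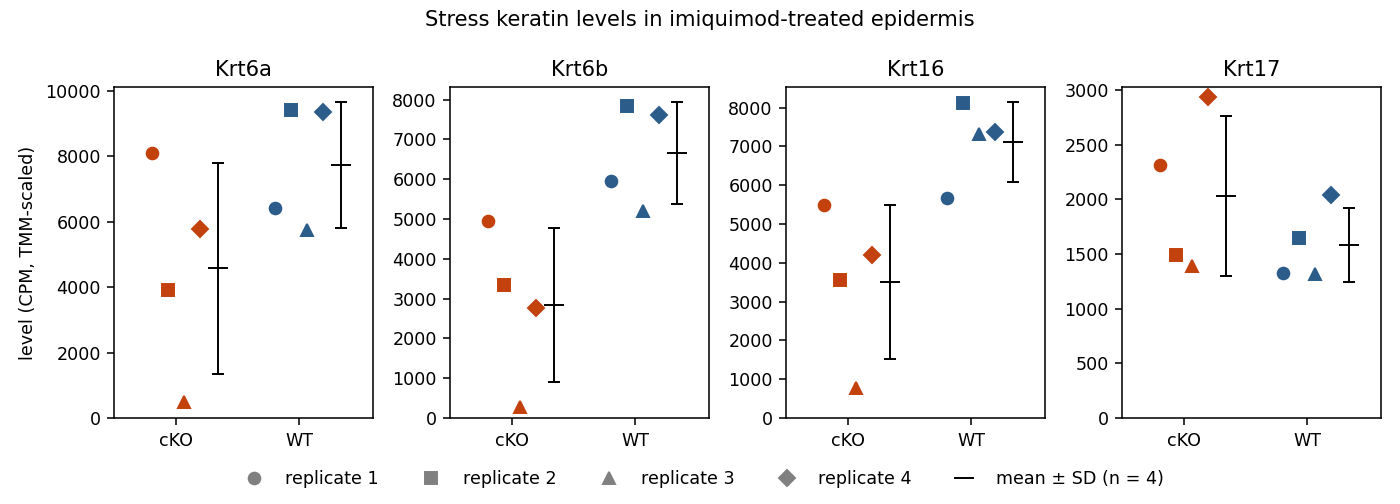
Level of each stress keratin (CPM on a linear axis from 0) in the 4 cKO and 4 WT libraries, with symbols for replicate numbers and black bars for mean ± SD. Krt6a, Krt6b and Krt16 are lowest in cKO replicate 3 (281 to 785 CPM), in which Krt17 (1389 CPM) lies within the WT range.

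The spread of Krt6a, Krt6b and Krt16 among cKO libraries was wide. The highest cKO library exceeded the lowest 16.5-fold for Krt6a, 17.7-fold for Krt6b and 6.99-fold for Krt16, but 2.12-fold for Krt17. Among WT libraries these ratios were 1.64, 1.51, 1.43 and 1.55. The order of the cKO libraries was the same for Krt6a and Krt16, with replicate 1 highest, then 4, 2 and 3, and Krt6b had replicate 2 above replicate 4. Replicate 1, with the highest Krt6a, Krt6b and Krt16 of the cKO libraries, was also the one with the lowest Hnrnpu. A link between the remaining Hnrnpu and these keratins was not tested.

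Leaving out cKO replicate 3 brought the log2 fold changes (cKO over WT) to -0.36 ± 0.28 for Krt6a, -0.84 ± 0.23 for Krt6b and -0.67 ± 0.19 for Krt16 (SE), with edgeR adjusted p values of 0.527, 0.124 and 0.123. Leaving out cKO replicate 1 brought them to -1.18, -1.64 and -1.31. Krt17 stood at 0.14 ± 0.23 without cKO replicate 4 and at 0.52 ± 0.25 without cKO replicate 3. No member changed its direction or was called in any of the 8 fits that left out a library.

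**Figure D2:**
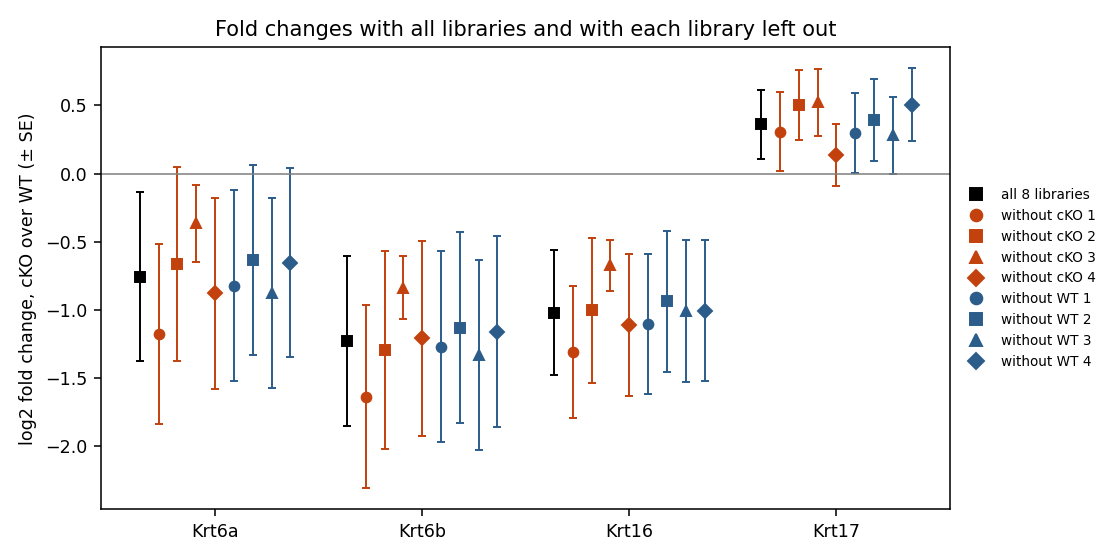
Log2 fold change (cKO over WT, ± SE, edgeR) of each stress keratin with all libraries (black) and with each library left out in turn (colours and symbols). Krt6a, Krt6b and Krt16 stay below 0 and move nearest to it without cKO replicate 3, and Krt17 stays above 0.

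Krt5, the basal keratin that serves as the denominator for a within-library ratio, stood at 10145, 7491, 6643 and 9763 CPM in cKO replicates 1 to 4 and at 9089, 10937, 6693 and 8112 CPM in WT replicates 1 to 4. Its log2 fold change was -0.03 ± 0.19 (SE, edgeR adjusted p = 0.953). A ratio of counts to Krt5 does not depend on how libraries are scaled. It compares geometric means, whereas the edgeR fold change compares mean levels, so a low library weighs more in it.

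Krt6b reached 0.489, 0.447, 0.0423 and 0.282 times the Krt5 count in cKO replicates 1 to 4, against 0.654, 0.717, 0.778 and 0.938 in WT replicates 1 to 4. Every cKO library was lower than every WT library. The log2 ratio was -2.15 ± 1.65 in cKO and -0.39 ± 0.22 in WT (SD, n = 4 each), a difference of -1.76 (exact permutation p = 0.0286). Without cKO replicate 3 the difference was -0.95. With Krt1 plus Krt10 as the denominator it was -1.68 and the exact permutation p 0.0571.

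Krt16 reached 0.541, 0.475, 0.118 and 0.431 times Krt5 in cKO replicates 1 to 4, against 0.624, 0.743, 1.10 and 0.907 in WT replicates 1 to 4, again with no overlap. The log2 ratio was -1.56 ± 1.02 in cKO and -0.28 ± 0.35 in WT (SD, n = 4 each), a difference of -1.28 (exact permutation p = 0.0286), and -0.78 without cKO replicate 3. With Krt14 as the denominator, which itself averaged 12455 ± 3929 CPM in cKO epidermis and 18588 ± 3121 CPM in WT epidermis (SD, n = 4 each) and shares windows with Krt16, the difference was -0.69 and the exact permutation p 0.0857. With Krt1 plus Krt10 it was -1.21 (exact permutation p = 0.114).

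Krt6a reached 0.799, 0.520, 0.0741 and 0.592 times Krt5 in cKO replicates 1 to 4, against 0.705, 0.859, 0.856 and 1.15 in WT replicates 1 to 4. Replicate 1 of the cKO group exceeded WT replicate 1, and the difference in log2 ratio was -1.26 (exact permutation p = 0.0571). Krt17 reached 0.228, 0.200, 0.209 and 0.301 times Krt5 in cKO replicates 1 to 4, against 0.146, 0.151, 0.197 and 0.251 in WT replicates 1 to 4. These ranges overlapped, with a difference in log2 ratio of 0.35 (exact permutation p = 0.200). With Krt14 as the denominator the difference was -0.66 for Krt6a (exact permutation p = 0.457) and 0.94 for Krt17 (exact permutation p = 0.0571). Of the 4 ratios to Krt5, 2 had no overlap, both lower in cKO. Of all other tested genes, 2.23% had a ratio to Krt5 that lay lower throughout the cKO libraries than in all WT libraries, and 5.65% had no overlap in either direction.

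Some of the proportions among the stress keratins differed between the libraries of the genotypes, by tests not adjusted for the number of pairs. Krt17 stood higher relative to Krt6a, Krt6b and Krt16 in all 4 cKO libraries than in all 4 WT libraries, and these 3 ratios were the ones without overlap among the 6 pairs of members compared. They share the Krt17 counts, so they are not independent of each other. Of all other tested genes, 5.02% had a ratio to Krt17 that lay lower throughout the cKO libraries than in all WT libraries, and 5.91% had no overlap in either direction.

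The count ratio of Krt17 to Krt6b was 0.466, 0.446, 4.95 and 1.07 in cKO replicates 1 to 4 and 0.224, 0.210, 0.253 and 0.268 in WT replicates 1 to 4. The WT libraries were close together, and cKO replicates 3 and 4 held more Krt17 than Krt6b counts. The difference in log2 ratio was 2.11, or 4.31-fold (exact permutation p = 0.0286), and 1.35 without cKO replicate 3.

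The count ratio of Krt17 to Krt6a was 0.285, 0.384, 2.82 and 0.509 in cKO replicates 1 to 4 and 0.208, 0.175, 0.230 and 0.218 in WT replicates 1 to 4, a difference in log2 ratio of 1.61, or 3.04-fold (exact permutation p = 0.0286). Without cKO replicate 3 it was 0.88. The lowest cKO value, in replicate 1, lay closest to the WT range.

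For Krt17 to Krt16, both type I keratins, the count ratio was 0.421, 0.420, 1.77 and 0.698 in cKO replicates 1 to 4 and 0.235, 0.203, 0.180 and 0.277 in WT replicates 1 to 4. The difference in log2 ratio was 1.63, or 3.10-fold (exact permutation p = 0.0286), and 1.17 without cKO replicate 3. In cKO replicate 3 alone Krt17 exceeded Krt16.

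The other ratios between members overlapped. Krt6a to Krt6b was 1.63, 1.16, 1.75 and 2.10 in cKO replicates 1 to 4 and 1.08, 1.20, 1.10 and 1.23 in WT replicates 1 to 4, with cKO replicate 2 within the WT range (log2 difference 0.50, exact permutation p = 0.0857). Krt6a to Krt16 differed by 0.03 on the log2 scale (exact permutation p = 0.943), with SDs of 0.56 in cKO and 0.31 in WT, and Krt6b to Krt16 by -0.47 (exact permutation p = 0.171). The summed type II counts of Krt6a and Krt6b over the summed type I counts of Krt16 and Krt17 differed by -0.70 (exact permutation p = 0.171), and by -0.20 without cKO replicate 3.

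**Figure D3:**
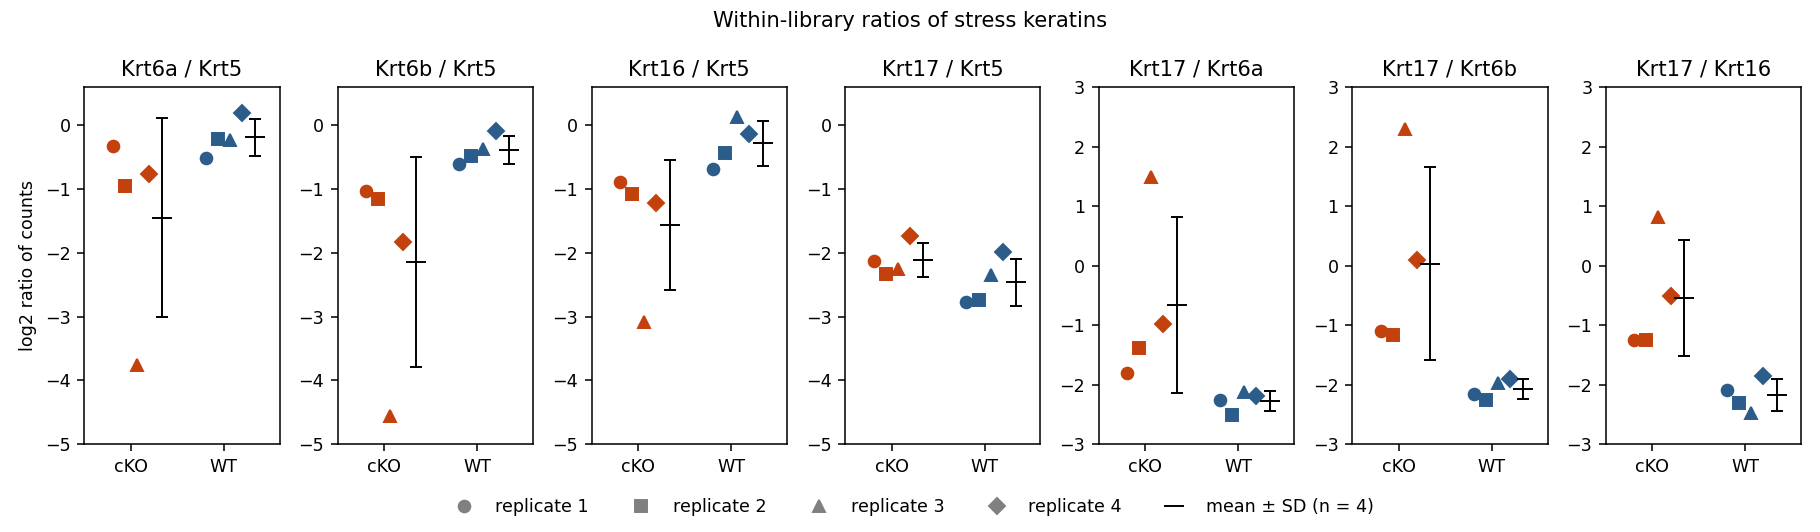
Log2 ratio of counts within each library, each member to Krt5 (4 panels on the left, same axis) and Krt17 to each other member (3 panels on the right, same axis), with black bars for mean ± SD (n = 4). Krt6b and Krt16 to Krt5 lie lower in all cKO libraries than in any WT library, and the Krt17 ratios lie higher in all of them, with cKO replicate 3 the most extreme.

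Levels of different genes were compared per length, as FPKM (counts scaled to gene length and library size). Krt16 averaged 2268 ± 1288 FPKM in cKO and 4438 ± 583 FPKM in WT, Krt6a 2054 ± 1463 FPKM in cKO and 3345 ± 829 FPKM in WT, and Krt6b 1270 ± 859 FPKM in cKO and 2905 ± 559 FPKM in WT (SD, n = 4 each). Krt17 averaged 1350 ± 537 FPKM in cKO and 998 ± 212 FPKM in WT. Among the 49 keratin genes in the table, Krt16, Krt6a, Krt6b and Krt17 ranked 5, 6, 9 and 8 in cKO and 3, 5, 6 and 8 in WT by mean FPKM. Among the 4, the WT range of Krt6a overlapped those of Krt16 and Krt6b. Krt16 (3645 to 5044 FPKM) lay above Krt6b (2224 to 3406 FPKM) throughout the WT libraries, and Krt17 lay below all of them. In cKO all 4 ranges overlapped.

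Together the 4 genes made up 28.2%, 18.8%, 7.69% and 27.0% of the summed keratin FPKM in cKO replicates 1 to 4 and 25.8%, 29.8%, 26.3% and 35.3% in WT replicates 1 to 4. Replicates 2 and 3 of the cKO group lay below every WT library and replicates 1 and 4 within the WT range. The mean share was 20.4% ± 9.46 in cKO and 29.3% ± 4.37 in WT (SD, n = 4 each, exact permutation p = 0.171). Within the FPKM of the 4, Krt17 took 13.8%, 14.9%, 51.5% and 22.6% in cKO replicates 1 to 4 and 8.60%, 7.63%, 8.18% and 9.70% in WT replicates 1 to 4.

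**Figure D4:**
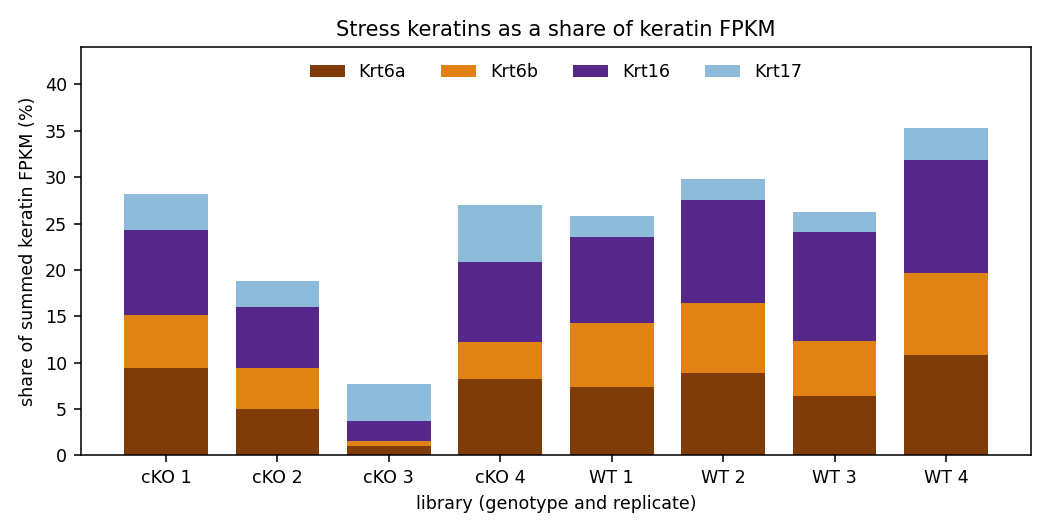
Share of the summed FPKM of 49 keratin genes (%, stacked bars from 0) taken by each stress keratin in each library, cKO on the left. The total is lowest in cKO replicate 3 (7.69%), and the Krt17 segment is 2.80% to 6.10% in cKO libraries and 2.15% to 3.42% in WT libraries.

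Neighbouring genes did not share one direction. In the RefSeq gene order the type II cluster runs Krt75, Gm5414, Krt6b, Krt6a, Krt5. Krt75, the type II keratin of the follicle companion layer, rose in cKO, to 28.7 ± 6.92 CPM in cKO against 4.38 ± 1.27 CPM in WT epidermis (SD, n = 4 each, log2 fold change 2.71 ± 0.26 SE, edgeR adjusted p = 0.0061). It was called in all 8 fits that left out a library. Gm5414, a gene model that shares 100-base windows with Krt6a and Krt6b, was at -1.29 ± 0.76 (edgeR adjusted p = 0.402). The type I cluster runs Krt14, Krt16, Krt17, Krt42. Krt14, the basal type I keratin, was at -0.58 ± 0.24 (edgeR adjusted p = 0.246), and Krt42, a close relative of Krt17, had at most 38 counts in a library and was not tested.

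Of the 45 other keratin genes listed and found in the table, 20 passed the count filter, 2 rose (Krt75 and Krt79) and 1 fell (Krt18), beside 0.671% of all genes called higher and 0.65% called lower. Their median log2 fold change was 0.38, against 0.01 over all genes tested. Krt79, a keratin of the follicle infundibulum, stood at 2426, 2473, 3129 and 3022 CPM in cKO replicates 1 to 4, against 1673, 1440, 1498 and 1119 CPM in WT replicates 1 to 4 (log2 fold change 0.95 ± 0.15 SE, edgeR adjusted p = 0.0301). It was called in 2 of the 8 fits that left out a library, those without cKO replicates 2 and 4, with adjusted p values up to 0.0868. Krt18, a simple-epithelium keratin, had at most 19 counts in a library, was at -2.40 ± 0.46 (edgeR adjusted p = 0.0411) and was called only without cKO replicate 4.

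None of the 3 tested basal keratins was called (median log2 fold change -0.03), and Krt15, the basal keratin of the follicle bulge, stood at 500, 406, 1295 and 348 CPM in cKO replicates 1 to 4 and at 529, 517, 375 and 217 CPM in WT replicates 1 to 4. Its highest value was in cKO replicate 3, where Krt6a, Krt6b and Krt16 were lowest. None of 6 tested suprabasal keratins was called (median 0.11), with Krt1 at -0.22 ± 0.18 (SE, edgeR adjusted p = 0.558) and Krt10 at 0.02 ± 0.22 (adjusted p = 0.980). Krt77, a suprabasal keratin named after its values were seen, had 26.1, 1349, 189 and 28.7 CPM in cKO replicates 1 to 4 and 24.7, 23.6, 16.7 and 5.65 CPM in WT replicates 1 to 4. All cKO values exceeded the WT values, but only in replicates 2 and 3 by a wide margin (edgeR adjusted p = 0.109). Of 3 tested simple-epithelium keratins 1 was called, with Krt23 at 1.80 ± 0.57 (edgeR adjusted p = 0.138) and Krt7 at 1.24 ± 0.64 (adjusted p = 0.341). Of 6 tested follicle and hair keratins 2 were called. Neither of 2 tested other keratins was called, Krt24 at 3.63 ± 0.88 (edgeR adjusted p = 0.0718) and Krt12 at 0.25 ± 0.53 (adjusted p = 0.850), and none of the mucosal keratins was tested, Krt4 and Krt13 having at most 23 counts in a library.

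**Figure D5:**
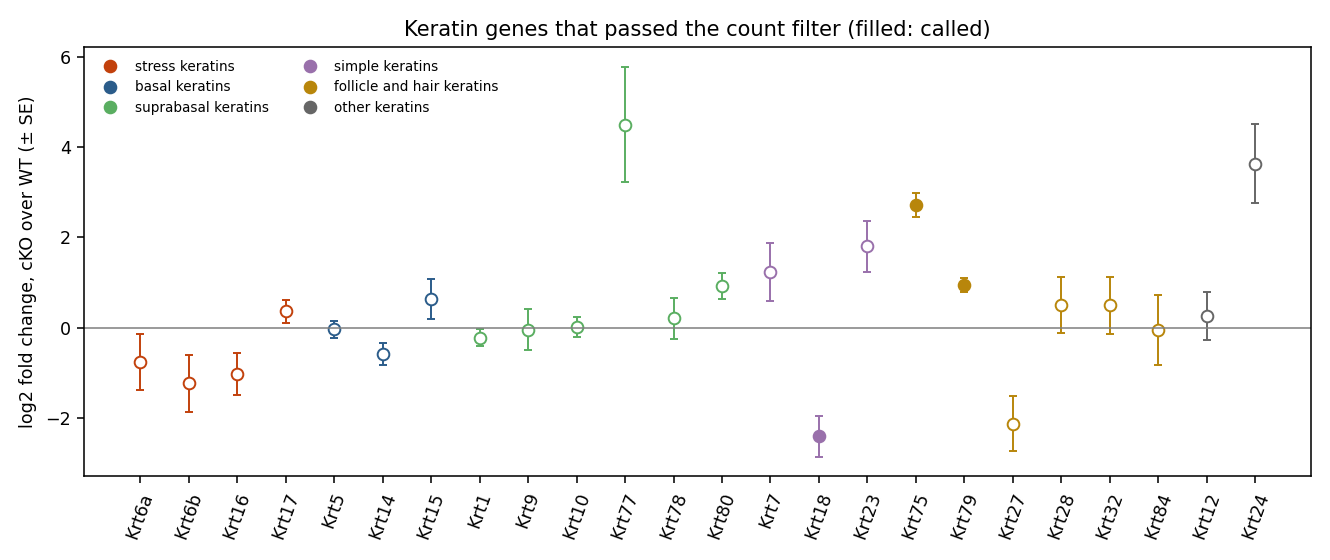
Log2 fold change (cKO over WT, ± SE, edgeR) of the 24 keratin genes that passed the count filter, coloured by class and filled where the adjusted p was below 0.05. Krt75 and Krt79 are called higher and Krt18 lower, and the stress keratins are open symbols on both sides of 0.

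Cytokines and growth factors of the IL-17, IL-20, IL-36, IL-1 and EGF families induce stress keratins in keratinocytes. The list of ligands used here also held Il6, Osm, Ifng and Tnf. Of its 21 ligands, 16 were tested, Tnf among them. None rose and 1 fell, beside 0.65% of all genes called lower. The median log2 fold change of the tested ligands was -0.91, against 0.01 over all genes. The called gene was Il24, a keratinocyte cytokine of the IL-20 family, at 0.182, 0.588, 0.241 and 0.190 CPM in cKO replicates 1 to 4 and 7.45, 4.70, 10.7 and 5.94 CPM in WT replicates 1 to 4 (log2 fold change -4.58 ± 0.45 SE, edgeR adjusted p = 0.0061). It was called in all 8 fits that left out a library. The most abundant ligands, Il36a (-0.16 ± 0.26, edgeR adjusted p = 0.795) and Il36g (0.34 ± 0.18, adjusted p = 0.359), alarmins of the IL-1 family, did not pass. Of the 16 ligands, 6 had fold changes above 0 and 10 below, from -4.58 to 1.26 on the log2 scale.

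None of 17 receptors for these ligands was called (median log2 fold change -0.06), with the TNF receptor gene Tnfrsf1a at -0.06 ± 0.08 (SE, edgeR adjusted p = 0.762) and the IL-20 receptor subunit Il20rb at 0.33 ± 0.18 (adjusted p = 0.376). None of 28 transcription factors known to act on these keratins or on keratinocyte fate was called (median -0.05), with Klf4 at 0.03 ± 0.18 (edgeR adjusted p = 0.953) and Trp63, the master factor of stratified epithelia, at -0.13 ± 0.13 (adjusted p = 0.626). Stat3, the transducer of IL-6 and IL-22 family signals, was at 217, 197, 205 and 223 CPM in cKO replicates 1 to 4 and 255, 258, 293 and 300 CPM in WT replicates 1 to 4 (-0.39 ± 0.09, edgeR adjusted p = 0.0685). Nfe2l2, the antioxidant response factor that can induce Krt6, Krt16 and Krt17, stood at 279, 117, 114 and 229 CPM in cKO replicates 1 to 4 and 171, 180, 170 and 189 CPM in WT replicates 1 to 4. The log2 fold change of Nfe2l2 was 0.06 ± 0.28 (edgeR adjusted p = 0.941). Its cKO values lay above the WT range in replicates 1 and 4 and below it in replicates 2 and 3. Krt17 likewise lay above the WT range in cKO replicates 1 and 4, but within it in replicates 2 and 3. Replicates 1 and 4 held most Krt6a and Krt16 among cKO, without exceeding the WT range, but Krt6b was higher in replicate 2 than in replicate 4. A link between Nfe2l2 and these keratins was not tested. Stat3 and Nfe2l2 were named after their values were seen.

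None of 11 filament linkers and binding partners of keratins was called (median log2 fold change -0.17). Dsp, desmoplakin, which ties keratin filaments to desmosomes, was at -0.17 ± 0.13 (SE, edgeR adjusted p = 0.504) and Sfn, the 14-3-3σ protein that binds Krt17, at -0.48 ± 0.18 (adjusted p = 0.205). Hnrnpk, another hnRNP protein and a reported partner of Krt17 in human keratinocytes, was at -0.11 ± 0.09 (edgeR adjusted p = 0.527).

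Of 19 other tested genes of activated keratinocytes, 4 fell and none rose, beside 0.65% of all genes called lower and 0.671% called higher (median log2 fold change -0.79, against 0.01 over all genes). Itga5, the fibronectin receptor subunit, stood at 6.50, 4.65, 4.13 and 5.69 CPM in cKO replicates 1 to 4 and 11.6, 13.2, 15.7 and 14.7 CPM in WT replicates 1 to 4 (-1.39 ± 0.18 SE, edgeR adjusted p = 0.0172). The connexins Gjb2 (-1.84 ± 0.31, edgeR adjusted p = 0.0337) and Gjb6 (-1.57 ± 0.25, adjusted p = 0.0301) and the urokinase gene Plau (-1.15 ± 0.19, adjusted p = 0.0318) fell as well. In these 4 genes cKO replicate 3 was the lowest library, as it was for Krt6a, Krt6b and Krt16. The calprotectin genes S100a9 (-0.97 ± 0.75, edgeR adjusted p = 0.528) and S100a8 (-1.03 ± 0.62, adjusted p = 0.413) did not pass. Of these 19, 1 was lower without cKO replicate 1, WT replicate 1 or WT replicate 2 and 0 without WT replicate 3 or WT replicate 4, against 4 or 5 in the other fits.

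The profile of each stress keratin over the 8 libraries was compared with that of 10049 other genes by the mean absolute difference in log2 CPM after centring each gene on its own mean. Krt6a was nearest to Krt6b (0.31) and Krt16 (0.31). Krt6b was nearest to Gsta4 (0.21), a glutathione transferase gene, followed by Krt6a and Krt16, and Gsta4 came next for Krt6a (0.36). Gsta4 averaged 69.9 CPM in cKO epidermis and 176 CPM in WT (log2 fold change -1.33 ± 0.62 SE, edgeR adjusted p = 0.288). Dnmt3l (0.40) and Slc16a3 (0.43) followed for Krt6a, and Sprr2k (0.49) and Pla2g4d (0.49) for Krt6b.

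Krt16 was nearest to Tmprss11a (0.27), Krt6a (0.31), Stab1 (0.32), Il4ra (0.35) and Bfsp1 (0.36), with Krt6b at rank 16. Of these, Il4ra, the IL-4 receptor subunit, fell (-1.10 ± 0.19 SE, edgeR adjusted p = 0.0336), and so did Stab1, a scavenger receptor gene (-1.17 ± 0.21, adjusted p = 0.0362). Il4ra was called in 3 and Stab1 in 2 of the 8 fits that left out a library. Krt17 ranked 4110, 7661 and 7307 for Krt6a, Krt6b and Krt16. Its own nearest genes were Ccnd1 (0.10), cyclin D1, then Oxnad1 (0.12), Pold2 (0.12), Ifitm3 (0.13) and Raver1 (0.14), none of them called. Krt17 varied little, so many genes lie near it by this measure.

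Of 12 outer root sheath and upper follicle markers, 11 had fold changes above 0 (median log2 1.03), as did 7265 of all 14004 genes tested. Of the 12, 8 were not called and 4 were called higher in cKO, beside 0.671% of all genes. These 4 were Krt75, Krt79, the isthmus stem cell receptor Lgr6 (1.11 ± 0.21 SE, edgeR adjusted p = 0.0386) and Gata6 (1.82 ± 0.30, adjusted p = 0.0308). The number called higher was 1, Krt75, without cKO replicate 1, cKO replicate 3 or any of the WT replicates, and 7 without cKO replicate 2. The list sum was 3326, 3232, 4931 and 3831 CPM in cKO replicates 1 to 4 and 2586, 2306, 2421 and 1686 CPM in WT replicates 1 to 4, without overlap and highest in cKO replicate 3. Most of this sum is Krt79, and much of the excess of cKO replicate 3 is Krt15, both given above, so it says little of the other 10 markers. None of its defining markers was at 0. The part of follicle content in the stress keratin levels was not tested.

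Beside the 0.671% of all genes called higher, 1 of 8 sebocyte markers rose, the lipid droplet gene Cidea (1.24 ± 0.24 SE, edgeR adjusted p = 0.044, called in 2 of the 8 fits that left out a library), and the list summed to between 895 and 3194 CPM in cKO, highest in replicate 3, and between 613 and 1155 CPM in WT. Of 6 melanocyte markers 1 rose against the same 0.671%, Mitf (1.24 ± 0.17, edgeR adjusted p = 0.02, called in 5 of these 8 fits), with sums of 59.7 to 118 CPM in cKO epidermis and 34.3 to 52.2 CPM in WT. No marker of the other cell types was called. Neutrophil markers summed to 7.15 to 30.2 CPM in cKO epidermis and 19.2 to 37.6 CPM in WT, macrophage markers to 23.3 to 53.3 CPM in cKO epidermis and 30.4 to 42.8 CPM in WT, and T cell markers to 7.16 to 22.3 CPM in cKO epidermis and 6.99 to 40.4 CPM in WT. Langerhans cell markers summed to 130 to 471 CPM in cKO epidermis and 187 to 259 CPM in WT, and red cell genes to 11.4 to 24.6 CPM in cKO epidermis and 21.4 to 51.9 CPM in WT. Endothelial markers, of which 1 of 4 was tested, summed to 0.840 to 1.31 CPM in cKO and 1.34 to 2.20 CPM in WT. These low sums did not overlap, by a narrow margin, and neither did those of the melanocyte markers. Of all genes tested, 11.1% had no overlap. Fibroblast and skeletal muscle markers stayed at or below 9.92 and 0.520 CPM in every library. Their part in the stress keratin levels was not tested.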

How the data were processed

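Total RNA of mouse epidermis was sequenced as 8 libraries, 4 per genotype, grouped by the titles in the labels. The authors deposited raw read counts by gene symbol, and FPKM values for the same libraries. HISAT2 and HTSeq were used, per the submitters' processing notes. No source used here gives their versions, the build, the annotation or the strand setting. The deposited FPKM values equal the counts scaled by length and column total for 20863 of 20863 genes (relative tolerance 1e-04), so they are not a separate measurement.

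The counts of 23171 genes were filtered with filterByExpr (14004 left), scaled with TMM factors and tested with edgeR 4.0.16 (quasi-likelihood, R 4.3.3, no covariate). Adjustment was by Benjamini-Hochberg over the whole tested table, with calls below 0.05. SEs are those implied by the F statistic. Single ratios had a two-sided exact permutation test over the 8 libraries. Neither the 4 ratios to Krt5 nor the 6 pairs of members were adjusted. Alternatives used DESeq2 1.42.0, limma 3.58.1, other scalings and filters, log2(FPKM + 1) and log2(FPKM + 0.1), the replicate number as a block and each library left out. The test was tried on simulated data first.

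The members and lists were chosen with earlier results of these data known. Named genes are the members, Krt5, Krt14, Krt1 and Krt10, Hnrnpu, the called and the 2 most abundant genes of each pathway list, the called genes of marker lists and the 5 genes nearest each member (mean of at least 4 CPM, no gene models or pseudogenes). Exceptions are stated, and Gm5414, Krt42, Krt15, Krt23, Krt7, Krt12, Krt24 and Hnrnpk are given as neighbours or list members. No pair of libraries of a genotype agreed within sampling noise (lowest chi-square per degree of freedom 47.9). Intervals cover spread between libraries only, and counting error on PCR reads without molecular identifiers is not separable here. Sequences are from GENCODE M21 transcripts (GRCm38). The build of the files is not given, so no coordinates are printed.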

Additional observations from a re-analysis of the deposited data

Results flagged for a closer look

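Among 32 groups of 4 libraries examined, 2 held a library far from the other 3 by Dixon's criterion on the gap over the range, and chance flags about 1 in 20. The log2 ratio of Krt16 to Krt5 counts was -3.08 in cKO replicate 3, away from the other cKO libraries. The log2 ratio of summed Krt6a and Krt6b to summed Krt16 and Krt17 counts was 0.34 in WT replicate 3, below the other WT libraries.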

How the results depend on the processing

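The direction and the lack of a call for Krt6a, Krt6b, Krt16 and Krt17 held in all 18 alternative fits of each, with log2 fold changes of -1.29 to -0.36, -1.79 to -0.84, -1.32 to -0.67 and 0.14 to 0.52. The limma fits, on log values, and the replicate block lay at the larger end for the first 3. Over the fits that left out a library the ranges were -1.18 to -0.36, -1.64 to -0.84, -1.31 to -0.67 and 0.14 to 0.52. The count of called genes was 185, but 1208 with DESeq2, 349 without a count filter and 8 to 506 with a library left out.

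With a library left out, the difference in log2 ratio to Krt5 ran from -1.63 to -0.49 for Krt6a, -2.13 to -0.95 for Krt6b, -1.51 to -0.78 for Krt16 and 0.22 to 0.50 for Krt17. With 3 against 4 libraries the exact permutation p cannot go below 0.0571, so no such fit could pass. Krt17 to Krt6a ran from 0.88 to 1.99, to Krt6b from 1.35 to 2.51 and to Krt16 from 1.17 to 1.87. Krt6a to Krt16 (0.03) ran from -0.12 to 0.29 and turned to -0.12 without cKO replicate 1, -0.09 without cKO replicate 4 and -0.12 without WT replicate 3. Krt6a to Krt6b ran from 0.38 to 0.66, Krt6b to Krt16 from -0.64 to -0.17, summed type II to type I from -0.95 to -0.20 and the share of keratin FPKM from -11.5 to -4.64 percentage points. With Krt1 plus Krt10 as denominator Krt6b was at -1.68 (exact permutation p = 0.0571) and Krt16 at -1.21; Krt16 was at -0.69 with Krt14. The cause was not tested.

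Same-numbered libraries of the genotypes correlated at -0.10, 0.13, 0.10 and 0.19 in their deviations from group means. Differently numbered libraries ran from -0.184 to 0.195. These values show no clear pairing by number, but so few libraries cannot exclude one. With the replicate block 216 genes were called. The exact sign-flip test over 4 pairs cannot go below 0.125, which was the p for the ratios of Krt6b (-1.76) and Krt16 (-1.28) to Krt5 and of Krt17 to Krt6a (1.61), Krt6b (2.11) and Krt16 (1.63) under the block.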
